A study of Mus musculus with 10 samples.

Results

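Adipose progenitors and fibroblasts are the stromal cells of fat: they lay down its matrix and renew its fat cells. The 10 genes described here mark these cells and were chosen by name from the deposited tables: Pdgfra, Pdgfrb, Dpp4, Pi16, Cd34, Clec11a, Dcn, Lum, Dpt and Fap. All 10 were found among the 16667 genes of the table of normalized counts and the 29242 genes of the TPM table, and all 10 passed the filter that left 14203 genes to test. RNA was sequenced from the visceral fat of 10 wild-type C57BL/6 mice aged 10 weeks, 5 with orthotopic KPC pancreatic tumours and 5 labelled sham, read here as a sham operation. KPC tumours model pancreatic cancer in mice, and an orthotopic one grows in the host's own pancreas. The labels give the same wild-type genotype for both groups and no time since the tumour or the sham procedure, and every title ends in gwat.

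In fat, progenitors that carry the PDGF receptor alpha sit around vessels and in the connective tissue that wraps the depot. Work on mouse fat places cells that express Dpp4 and Pi16 at the start of the lineage, in the fibrous interstitium, and cells that have begun to take up the fat cell programme closer to the vessels. General fibroblasts share a matrix programme of decorin, lumican, dermatopontin and fibrillar collagens. None of the 10 genes is exclusive to one cell type, since Cd34 is also made by endothelial cells and Pdgfrb by pericytes.

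None of the 10 genes passed the test between tumour-bearing and sham mice. By limma, which fits a linear model to every gene and shares the estimate of spread among them, with p-values adjusted by Benjamini and Hochberg over all genes, 0 of 10 were called, where 0.0563% of all genes tested were called in either direction, 0.0493% higher and 0.00704% lower. At an unadjusted p under 0.05 the count was also 0 of 10, where 13.5% of all genes lay under it, 7.61% higher and 5.91% lower. In 0 of 10 genes did the 5 KPC mice lie wholly above or below the 5 sham mice, where 4.03% of all genes did so, 2.75% above and 1.28% below. The log2 difference, KPC minus sham on log2(normalized count + 1), was positive for 6 genes and negative for 4, where 46.9% of all genes tested were positive. The median was 0.05 for the 10 genes and -0.02 over all genes tested. Because this is bulk RNA, fewer cells of a type and less RNA per cell cannot be told apart.

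The 95% intervals of the 10 differences lay within -0.82 to 0.80 on the log2 scale, or a fold of 0.566 to 1.74 of KPC over sham. An interval inside a log2 difference of -1 to 1 was reached by all 10 genes, and by 75.5% of all genes tested. The median SE of a difference was 0.21 for the 10 genes and 0.17 over all genes. Differences within these intervals are not excluded by the 5 mice per group.

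**Figure D1:**
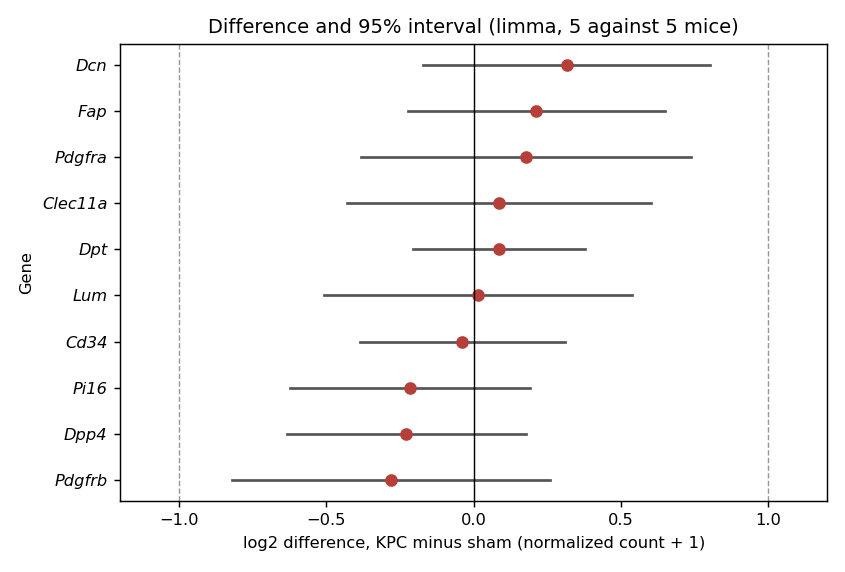
Log2 difference, KPC minus sham, of log2(normalized count + 1) for each of the 10 genes (points) with its 95% interval from limma (lines), 5 against 5 mice. Dashed lines mark a log2 difference of -1 and 1, and every interval spans 0 and ends inside the dashed lines.

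Levels differed between the genes far more than between the groups. In TPM, which corrects for transcript length and so allows genes to be compared, the means over 10 mice ran from 5.69 for Fap to 1128 for Dcn. The order was Dcn, Dpt, Lum, Cd34, Pi16, Pdgfra, Dpp4, Pdgfrb, Clec11a and Fap. Each of Dcn, Dpt, Cd34 and Pi16 lay above the next gene in all 10 mice. Lum exceeded Cd34 in 8 of 10 mice, Pdgfra exceeded Dpp4 in 9, Dpp4 exceeded Pdgfrb in 8, and Pdgfrb exceeded Clec11a in 9. Clec11a and Fap were not ordered, since Clec11a was the higher in 5 of 10 mice.

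**Figure D2:**
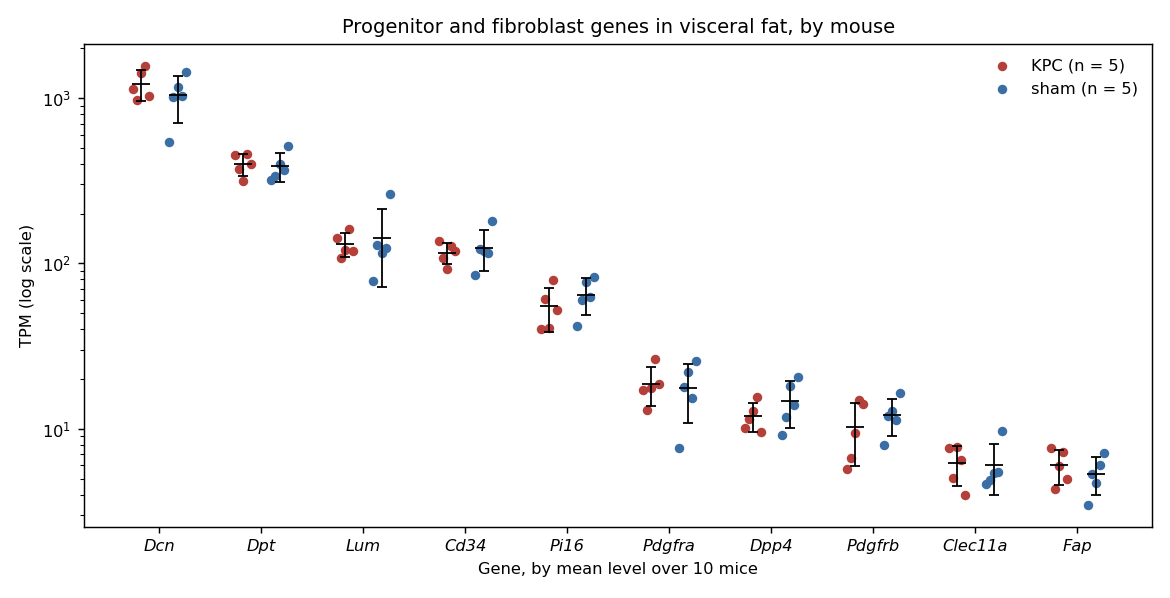
TPM on a log axis for each gene, ordered by its mean over 10 mice, with 1 point per mouse, KPC on the left and sham on the right, and bars for the mean and SD of 5 mice. Dcn averaged 1220.4 TPM in KPC and 1035 TPM in sham mice, and for every gene the points of the groups overlap.

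Promoters of 4 genes are printed here. Dpt and Cd34 had a Pearson correlation that passed over all mice but not without KPC mouse 1, and Dpp4 and Pi16 mark the same progenitors. The other pairs that passed hold Dcn or Lum, whose promoters were not at hand. They are the RefSeq windows on GRCm38.p6 from 250 bases before to 50 bases after the annotated start, read 5′ to 3′ on the gene's strand. Capitals mark TATAAA and CCAAT wherever these letters occur on either strand.
Dpt promoter (chr1:164796413-164796712, plus strand): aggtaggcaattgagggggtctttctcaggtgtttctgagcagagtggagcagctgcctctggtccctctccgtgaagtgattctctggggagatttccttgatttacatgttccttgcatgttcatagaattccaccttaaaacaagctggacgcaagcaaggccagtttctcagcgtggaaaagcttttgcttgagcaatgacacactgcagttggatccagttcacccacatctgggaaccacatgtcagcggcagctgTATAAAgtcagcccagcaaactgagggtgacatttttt
Cd34 promoter (chr1:194938571-194938870, plus strand): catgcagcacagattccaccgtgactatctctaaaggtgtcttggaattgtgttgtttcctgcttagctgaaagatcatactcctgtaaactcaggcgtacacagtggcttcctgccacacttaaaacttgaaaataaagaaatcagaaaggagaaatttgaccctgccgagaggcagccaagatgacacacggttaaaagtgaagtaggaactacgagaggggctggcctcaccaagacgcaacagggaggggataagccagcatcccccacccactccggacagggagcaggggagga
Dpp4 promoter (chr2:62412182-62412481, minus strand): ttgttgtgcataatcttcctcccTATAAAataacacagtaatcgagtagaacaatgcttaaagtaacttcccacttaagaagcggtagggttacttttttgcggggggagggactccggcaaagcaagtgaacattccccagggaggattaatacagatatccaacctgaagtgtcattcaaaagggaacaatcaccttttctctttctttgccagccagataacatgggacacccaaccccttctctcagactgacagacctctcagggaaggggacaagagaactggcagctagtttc
Pi16 promoter (chr17:29318632-29318931, plus strand): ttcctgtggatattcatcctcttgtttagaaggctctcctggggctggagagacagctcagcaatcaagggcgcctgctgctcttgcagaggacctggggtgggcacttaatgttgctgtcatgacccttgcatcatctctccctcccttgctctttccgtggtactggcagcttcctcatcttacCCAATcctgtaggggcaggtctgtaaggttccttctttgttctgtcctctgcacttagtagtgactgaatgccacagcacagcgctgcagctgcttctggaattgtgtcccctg

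The RefSeq table held promoters for 6 of the 10 genes: these 4, Pdgfra and Clec11a. TATAAA was found in 2 of the 6, Dpt and Dpp4, and in 13.6% of all 32851 promoters of the table. Counting the first transcribed base as 0, it began at 12 in Dpt and at -227 in Dpp4. CCAAT, found in 37.4% of all promoters, was present in Pi16 at -64 and in Clec11a at -24. GGGCGG, found in 35.7% of promoters, was present in Clec11a alone among the 6, and TTGCNNAA, found in 10.8%, in Dpt, Pdgfra and Clec11a. All motifs were searched on both strands, and no match of one overlapped a match of another. A match describes the letters only.

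The PDGF receptors pointed in opposite directions without passing the test. Pdgfra, the receptor tyrosine kinase that marks adipose progenitors and fibroblasts, stood at 17.2, 13.0, 17.7, 26.4 and 18.7 TPM in KPC mice 1 to 5, against 7.70, 17.9, 21.9, 15.3 and 25.8 TPM in sham mice 1 to 5. Sham mouse 1 was far below the rest, and the other 9 mice were mixed. The means were 18.6 ± 4.88 TPM in KPC and 17.7 ± 6.88 TPM in sham mice (SD, n = 5 each, as for every mean given here), a log2 difference of 0.18 ± 0.26 (SE) with a limma adjusted p of 0.792. Without sham mouse 1 the difference was -0.05.

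Pdgfrb, the receptor of pericytes and perivascular progenitors, stood at 5.70, 6.68, 9.48, 15.0 and 14.1 TPM in KPC mice, against 7.95, 12.02, 12.8, 11.3 and 16.6 TPM in sham mice. KPC mice 1 and 2 lay below every sham mouse, while KPC mice 4 and 5 lay above 4 of the 5. Its means were 10.2 ± 4.22 TPM in KPC and 12.1 ± 3.09 TPM in sham mice, a log2 difference of -0.28 ± 0.25 with a limma adjusted p of 0.638. It was -0.12 without KPC mouse 1. Per Pdgfra transcript, in TPM, Pdgfrb had ratios of 0.331, 0.515, 0.534, 0.566 and 0.755 in KPC mice, against 1.03, 0.673, 0.584, 0.738 and 0.641 in sham mice. In 4 of 5 KPC mice the ratio was below that of every sham mouse, and KPC mouse 5 had a higher ratio than any sham mouse but 1. Among other ratios to Pdgfra, 2 of 5 KPC mice lay below every sham mouse for Cd34, for Clec11a and for Dpt. For Dcn 2 lay above every sham mouse, and for Lum and Fap 0 lay below or above. The ratios are given as a description with no test.

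Among the ligands of these receptors, 0 of 4 passed. Pdgfa, whose product binds the alpha receptor, stood at 10.4 ± 2.77 TPM in KPC and 11.8 ± 1.86 TPM in sham mice, and Pdgfb, made by endothelial cells to hold pericytes, at 19.3 ± 9.78 TPM in KPC and 14.9 ± 2.33 TPM in sham mice. Pdgfc, a further ligand of the alpha receptor, stood at 14.7 ± 1.48 TPM in KPC and 14.3 ± 2.64 TPM in sham mice. The list's median log2 difference was 0.10.

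Dpp4 and Pi16, which mark interstitial progenitors, had negative differences that did not pass the test. Dpp4, a surface protease that trims dipeptides from chemokines and hormones, stood at 10.0, 11.5, 12.9, 15.6 and 9.59 TPM in KPC mice, against 9.12, 11.7, 18.1, 13.9 and 20.5 TPM in sham mice. Of the KPC mice, 1 lay above the sham median, and sham mouse 1 was the lowest of all 10. The means were 11.9 ± 2.43 TPM in KPC and 14.7 ± 4.63 TPM in sham mice, a log2 difference of -0.23 ± 0.18 with a limma adjusted p of 0.604.

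Pi16, which encodes peptidase inhibitor 16, stood at 40.0, 61.3, 40.8, 79.8 and 52.4 TPM in KPC mice, against 41.6, 59.8, 77.1, 62.2 and 83.1 TPM in sham mice. Here too 1 KPC mouse lay above the sham median, and KPC mice 1 and 3 lay just below the lowest sham mouse. Means of 54.9 ± 16.5 TPM in KPC and 64.8 ± 16.3 TPM in sham mice gave a log2 difference of -0.22 ± 0.19 and a limma adjusted p of 0.630. Relative to Pdgfra, in TPM, Pi16 had a median ratio of 2.80 in KPC and 3.52 in sham mice, with 4 of 5 KPC mice below every sham mouse. KPC mouse 2, at 4.72, was the exception. For Dpp4 the median ratio to Pdgfra was 0.591 in KPC and 0.828 in sham mice, with 3 of 5 KPC mice below every sham mouse. The ratio of Pi16 to Dpp4 lay above every sham mouse in 3 KPC mice and below every sham mouse in 2.

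Cd34, a sialomucin of progenitors and endothelial cells, stood at 136, 107, 91.8, 127 and 118 TPM in KPC mice, against 84.8, 122, 119, 116 and 180.5 TPM in sham mice. The sham group held both the lowest and the highest mouse, and the KPC mice fell between. The means were 116 ± 17.1 TPM in KPC and 124 ± 34.7 TPM in sham mice, a log2 difference of -0.04 ± 0.16 with a limma adjusted p of 0.935, and the difference was 0.09 without sham mouse 5. Of 12 endothelial markers, which bear on Cd34, 0 passed, 8 had a positive difference and the list's median was 0.11. Pecam1, the endothelial adhesion molecule, stood at 99.5 ± 29.0 TPM in KPC and 88.5 ± 7.88 TPM in sham mice. Vwf, Esam and Emcn had the smallest unadjusted p of the list. Vwf stood at 49.0 ± 10.9 TPM in KPC and 30.9 ± 9.81 TPM in sham mice. Esam stood at 85.4 ± 18.4 TPM in KPC and 67.8 ± 4.06 TPM in sham mice. Emcn stood at 31.3 ± 4.07 TPM in KPC and 28.0 ± 3.42 TPM in sham mice. The limma adjusted p was 0.252 for Vwf, 0.254 for Esam and 0.460 for Emcn. For Esam the groups did not overlap, as for 4.03% of all genes tested. Of the 12, 4 were negative.

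Of 14 tested further markers of interstitial progenitors, 0 passed, 10 had a negative difference and the median was -0.29. Sema3c, a secreted semaphorin, stood at 23.5 ± 6.06 TPM in KPC and 35.2 ± 7.08 TPM in sham mice, with a log2 difference of -0.57 ± 0.16 and a limma adjusted p of 0.203. Stmn4, a stathmin, stood at 0.413 ± 0.257 TPM in KPC and 1.13 ± 0.180 TPM in sham mice, and here the groups did not overlap. Ly6c1, a surface antigen that endothelial cells carry too, lay the other way, at 459 ± 70.7 TPM in KPC and 354 ± 44.98 TPM in sham mice, also with no overlap. The limma adjusted p was 0.233 for Stmn4 and 0.180 for Ly6c1. Sema3c, Stmn4 and Ly6c1 were named for the smallest unadjusted p of the list, and the groups did not overlap in 4.03% of all genes tested.

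Fap, the fibroblast activation protein, is a surface protease related to Dpp4, and the genes are close neighbours on chromosome 2. It stood at 7.68, 4.32, 5.92, 7.22 and 4.99 TPM in KPC mice, against 3.47, 5.36, 4.72, 6.03 and 7.16 TPM in sham mice. KPC mice 1 and 4 lay above every sham mouse, and the other three KPC mice fell inside the sham range. The means were 6.03 ± 1.43 TPM in KPC and 5.35 ± 1.38 TPM in sham mice, a log2 difference of 0.21 ± 0.20 with a limma adjusted p of 0.661, and the difference was 0.10 without KPC mouse 1.

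The ratio of Fap to Dpp4, in TPM, was 0.765, 0.374, 0.460, 0.463 and 0.521 in KPC mice, against 0.380, 0.457, 0.260, 0.433 and 0.349 in sham mice. It was above every sham mouse in 4 of 5 KPC mice, and KPC mouse 2 lay inside the sham range. No test was run on this ratio. Of 9 other dipeptidyl and prolyl peptidases, 0 passed and the median was -0.09. Prcp, a lysosomal carboxypeptidase, stood at 13.5 ± 2.39 TPM in KPC and 9.92 ± 1.92 TPM in sham mice, with a limma adjusted p of 0.225. Prep, prolyl endopeptidase, stood at 4.28 ± 0.649 TPM in KPC and 5.05 ± 0.470 TPM in sham mice, with a limma adjusted p of 0.345.

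Clec11a, a secreted growth factor of skeletal and stromal progenitors also called osteolectin, stood at 7.65, 5.04, 7.79, 6.47 and 3.99 TPM in KPC mice, against 4.66, 4.90, 5.40, 5.44 and 9.64 TPM in sham mice. Sham mice 1 to 4 were close together, sham mouse 5 was the highest of all 10 and KPC mouse 5 the lowest. The means were 6.19 ± 1.65 TPM in KPC and 6.01 ± 2.06 TPM in sham mice, with a log2 difference of 0.09 ± 0.24 and a limma adjusted p of 0.896. Without sham mouse 5 the difference was 0.26, and without KPC mouse 1 it was -0.02. Clec11a also marks F3+ stromal cells in mouse fat, and of 10 other markers of these cells 0 passed and 5 lay each way. Mgp, the matrix Gla protein, stood at 611 ± 217 TPM in KPC and 341 ± 85.8 TPM in sham mice, with a log2 difference of 0.84 ± 0.23 and a limma adjusted p of 0.191.

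The 3 matrix genes stood at the highest levels of the 10, and none passed the test. Dcn encodes decorin, a small leucine-rich proteoglycan that binds collagen and transforming growth factor beta. It stood at 1126, 970.0, 1421, 1562 and 1022 TPM in KPC mice, against 539, 1009.7, 1159.9, 1027 and 1439.5 TPM in sham mice. KPC mouse 4 was the highest and sham mouse 1 lay far below all others. The means were 1220.4 ± 259 TPM in KPC and 1035 ± 326 TPM in sham mice. Its log2 difference of 0.32 ± 0.22, the largest of the 10 genes in size, had a limma adjusted p of 0.552 and was 0.14 without sham mouse 1.

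Lum encodes lumican, a related proteoglycan that spaces collagen fibrils, and lies next to Dcn with 46984 bases between the genes. It stood at 143, 107, 121, 161 and 119 TPM in KPC mice, against 78.6, 129, 116, 124 and 263 TPM in sham mice. Again both extremes were sham mice, with sham mouse 5 far above the rest. The means were 130.3 ± 21.6 TPM in KPC and 142 ± 70.3 TPM in sham mice, with a log2 difference of 0.01 ± 0.24 and a limma adjusted p of 0.987. The difference was 0.25 without sham mouse 5 and -0.13 without sham mouse 1. The ratio of Dcn to Lum, in TPM, had a median of 9.04 in KPC and 7.83 in sham mice, with overlapping ranges of 7.88 to 11.7 and 5.48 to 10.0.

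Dpt encodes dermatopontin, a matrix protein that binds decorin and marks fibroblasts across tissues. It stood at 455, 371, 314, 455 and 399.8 TPM in KPC mice, against 318, 339, 397, 368 and 513 TPM in sham mice. It varied least of the 10 genes, with a highest mouse 1.63 times the lowest, where Pdgfra had 3.43 times. Means of 399 ± 59.7 TPM in KPC and 387 ± 76.6 TPM in sham mice gave a log2 difference of 0.09 ± 0.13 and a limma adjusted p of 0.813.

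Of 10 tested other small leucine-rich proteoglycans and their kin, 0 passed, 4 had a positive difference and the median was -0.35. Podn, podocan, stood at 32.0 ± 8.82 TPM in KPC and 22.4 ± 5.33 TPM in sham mice, with a limma adjusted p of 0.259. Bgn, biglycan, the closest relative of decorin, stood at 152 ± 35.4 TPM in KPC and 114 ± 40.5 TPM in sham mice, with a limma adjusted p of 0.379. Aspn, asporin, stood at 11.1 ± 4.29 TPM in KPC and 18.3 ± 9.30 TPM in sham mice, with a limma adjusted p of 0.362. In a list of partners of the 10 genes, among them integrins and transforming growth factors, 0 of 11 passed. Tgfb2 had the smallest unadjusted p there, at 1.99 ± 0.529 TPM in KPC and 3.03 ± 1.09 TPM in sham mice.

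General fibroblast markers outside the 10 genes had 0 of 28 called, 9 with a positive and 19 with a negative difference, and a median of -0.09. Serping1, the complement C1 inhibitor, stood at 343 ± 78.5 TPM in KPC and 205 ± 61.4 TPM in sham mice, and C3, complement component 3, at 1472 ± 572 TPM in KPC and 790.4 ± 170 TPM in sham mice. Ly6a, the antigen Sca-1 of progenitors and endothelium, stood at 501 ± 137 TPM in KPC and 302 ± 41.3 TPM in sham mice, with no overlap, as in 4.03% of all genes tested. Ly6a, Serping1 and C3 were named for the smallest unadjusted p of the list. The limma adjusted p was 0.157 for Serping1, 0.252 for C3 and 0.152 for Ly6a. These 3 lay against the majority of the list, in which the collagens had negative differences. Col6a2, a chain of collagen VI, stood at 97.5 ± 30.5 TPM in KPC and 162 ± 58.2 TPM in sham mice, a log2 difference of -0.68 ± 0.23 with a limma adjusted p of 0.268. Col1a1, a chain of the fibrillar collagen I, stood at 91.4 ± 28.7 TPM in KPC and 126 ± 81.4 TPM in sham mice, a log2 difference of -0.29 ± 0.32 with a limma adjusted p of 0.715.

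Markers of activated fibroblasts had 0 of 19 called, 10 with a positive and 9 with a negative difference, and a median of 0.07. Timp1, an inhibitor of matrix metalloproteases, stood at 51.9 ± 77.9 TPM in KPC and 7.54 ± 2.78 TPM in sham mice, Tgfbi, a matrix protein induced by transforming growth factor beta, at 52.3 ± 16.2 TPM in KPC and 31.6 ± 9.10 TPM in sham mice, and the chemokine Cxcl12 at 193 ± 52.9 TPM in KPC and 129 ± 26.1 TPM in sham mice. Without KPC mouse 1 the KPC mean of Timp1 was 17.2 TPM and the list's median was -0.16.

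Markers of committed preadipocytes had 0 of 15 called and a median of -0.18, or -0.01 without KPC mouse 1, with members on both sides. Apod, apolipoprotein D, a lipocalin, stood at 28.1 ± 8.58 TPM in KPC and 10.4 ± 2.74 TPM in sham mice, a log2 difference of 1.45 ± 0.23 with a limma adjusted p of 0.0605. Without KPC mouse 1 its log2 difference was 1.61 and the limma adjusted p 0.0117, so this call rests on which mice enter, and 0.493% of all genes were called then, 0.465% higher and 0.0282% lower. Icam1, the adhesion molecule that names these cells, stood at 21.0 ± 3.26 TPM in KPC and 13.1 ± 1.23 TPM in sham mice, and Ggt5, a gamma-glutamyltransferase, at 9.07 ± 0.891 TPM in KPC and 5.82 ± 1.77 TPM in sham mice. For Apod, Icam1 and Ggt5 the groups did not overlap, where 4.03% of all genes tested did not overlap, 2.75% higher and 1.28% lower. These genes were named for the smallest unadjusted p of the list, so the lack of overlap is no further evidence. The limma adjusted p was 0.0835 for Icam1 and 0.139 for Ggt5. In the list 8 of 15 differences were negative. Pparg, the master regulator of fat cell formation, stood at 61.2 ± 15.8 TPM in KPC and 91.3 ± 17.4 TPM in sham mice, a log2 difference of -0.56 ± 0.18 with a limma adjusted p of 0.255. Lpl, lipoprotein lipase, stood at 2063 ± 857 TPM in KPC and 3453 ± 523 TPM in sham mice, with a limma adjusted p of 0.354. Which cells of the tissue made the transcripts of this list was not tested.

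**Figure D3:**
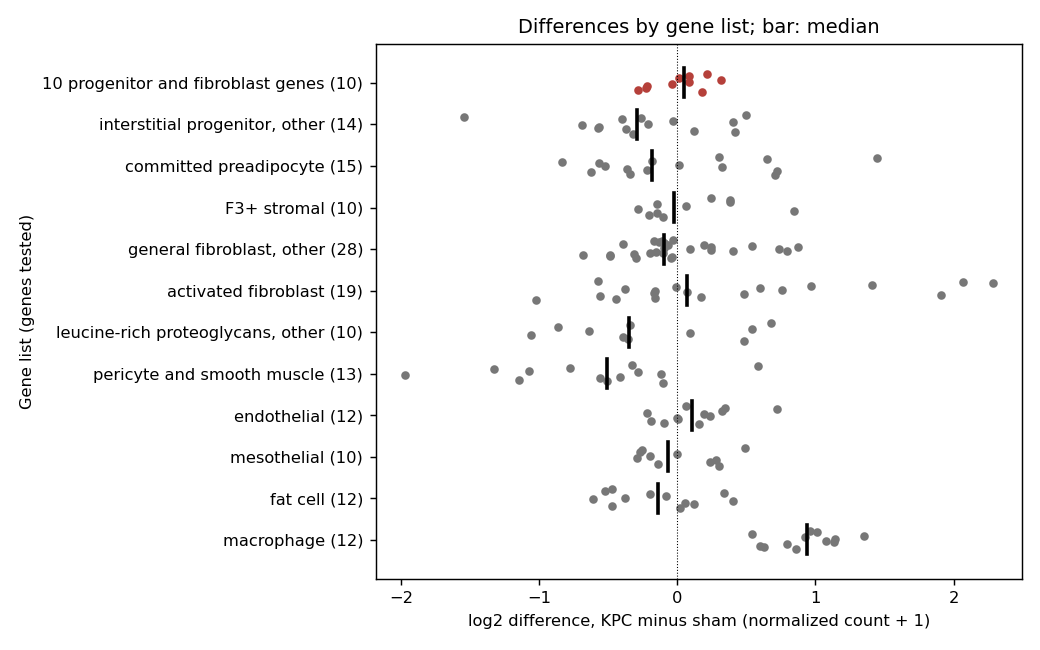
Log2 difference, KPC minus sham, of each tested gene (points) in 12 lists, with a bar at the list's median. The 10 progenitor and fibroblast genes have a median of 0.05 and lie between -0.28 and 0.32, where macrophage markers have a median of 0.94.

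The same mice stood high or low for many of the 10 genes. Relative to each gene's mean over 10 mice, all 10 genes lay below it in sham mouse 1 and all 10 above it in sham mouse 5, with median log2 deviations of -0.33 and 0.53. KPC mouse 4 had all 10 genes above the mean, at a median of 0.24, and KPC mouse 2 had 9 of 10 below it, at a median of -0.13. On this log2 scale sham mouse 5 was the highest of all mice for 8 genes and sham mouse 1 the lowest for 5. The pattern was not particular to the 10 genes. The summed TPM of the other general fibroblast markers was lowest in sham mouse 1, at 7222, and highest in sham mouse 5, at 13904. For the further markers of interstitial progenitors the same mice were lowest and highest, at 562 and 920 TPM. KPC mouse 1, the library least like the others, ran from -0.81 for Pdgfrb to 0.55 for Fap.

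**Figure D4:**
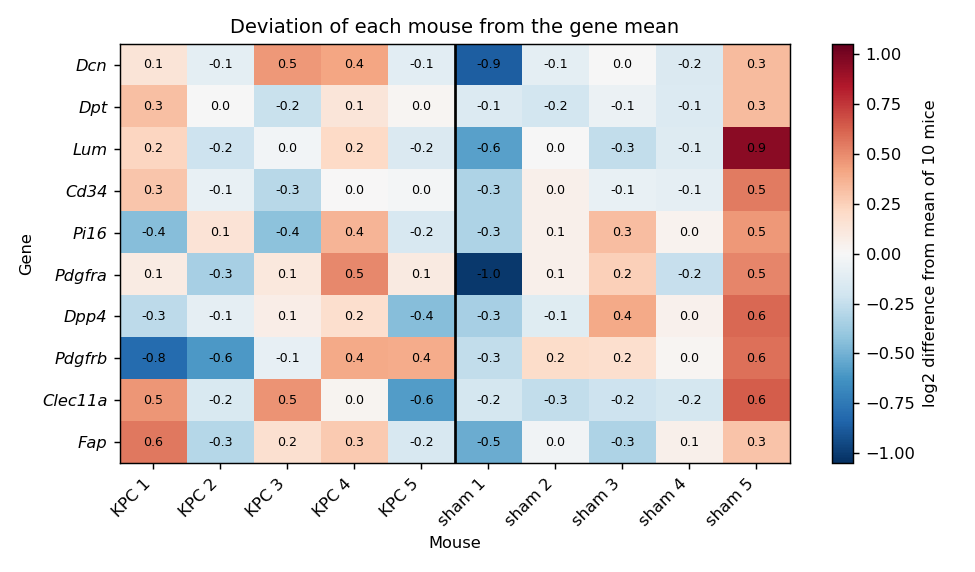
Log2(normalized count + 1) of each gene (rows) in each mouse (columns, KPC left of the line and sham right of it) minus the gene's mean over 10 mice, written in the cells and coloured. Sham mouse 1 is below the mean and sham mouse 5 above it for all 10 genes.

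Across the 10 mice, 42 of 45 pairs of these genes had a positive correlation of log2 values, with a median Pearson r of 0.50. The share over pairs of all genes was not worked out, so these counts do not set the 10 genes apart. Timp2, which is outside the 10 genes, had r = 0.97 with Pdgfra over the same mice. After adjustment over the 45 pairs, 3 passed by a permutation test with 100000 resamples. Pdgfra and Dcn had r = 0.89 (permutation p = 0.00207, adjusted 0.0315) and a Spearman rho of 0.78 (permutation p = 0.0109, adjusted 0.157), and r = 0.68 without the 2 mice farthest from the median of Pdgfra. Cd34 and Lum had r = 0.88 (permutation p = 0.00176, adjusted 0.0315) and rho = 0.79 (permutation p = 0.0088, adjusted 0.157), with r = 0.59 without the 2 farthest mice.

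Cd34 and Dpt, whose promoters are printed above, had r = 0.85 (permutation p = 0.0021, adjusted 0.0315) and rho = 0.70 (permutation p = 0.0316, adjusted 0.157), with r = 0.49 without the 2 farthest mice. By rank, 1 pair passed, Lum and Fap, with rho = 0.95 (permutation p = 0.00013, adjusted 0.00585) and r = 0.76 (permutation p = 0.0069, adjusted 0.0776), and r = 0.92 without the 2 farthest mice. Pdgfrb had a median r of 0.28 to the other 9 genes over 10 mice and of 0.54 without KPC mouse 1, where it was lowest of all mice. Without KPC mouse 1, 0 of 45 pairs passed by Pearson over 9 mice, with a lowest adjusted permutation p of 0.0526, while all 45 were positive with a median r of 0.60. The r values of the 3 pairs were then 0.89 for Pdgfra and Dcn, 0.90 for Cd34 and Lum and 0.83 for Cd34 and Dpt. By rank Lum and Fap still passed over those 9 mice (rho = 0.95, permutation p = 0.00045, adjusted 0.0202). All values of 1 mouse come from 1 library, which the genes share.

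The titles carry a first number of 1, 2 or 4, and the labels do not say what it marks. Pdgfrb ran with it: it stood at 5.70 to 12.02 TPM in the 4 mice numbered 1, at 9.48 to 12.8 TPM in the 3 numbered 2 and at 14.1 to 16.6 TPM in the 3 numbered 4. The mice numbered 4, of both groups, lay above all others. In a fit with the group as a term, chosen after the values were seen, the number had an unadjusted limma p of 0.000787 for Pdgfrb and an adjusted p of 0.234. Of the 10 genes 1 was under an unadjusted p of 0.05, where 11.4% of all genes were, and 0 were called, where 0.00704% of all genes were.

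Within these numbers the differences between groups did not keep 1 direction for most genes. Among mice numbered 1, with 2 KPC and 2 sham mice, 8 genes had a positive and 2 a negative log2 difference, with a median of 0.31. Among those numbered 2, with 1 KPC and 2 sham mice, 5 lay each way. Among those numbered 4, with 2 KPC mice and sham mouse 5 as the only sham mouse, all 10 were negative, with a median of -0.31. Pdgfrb and Pi16 were negative within all 3 numbers, at -0.67, -0.19 and -0.18 for Pdgfrb and at -0.02, -0.61 and -0.36 for Pi16. No gene was positive within all 3.

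**Figure D5:**
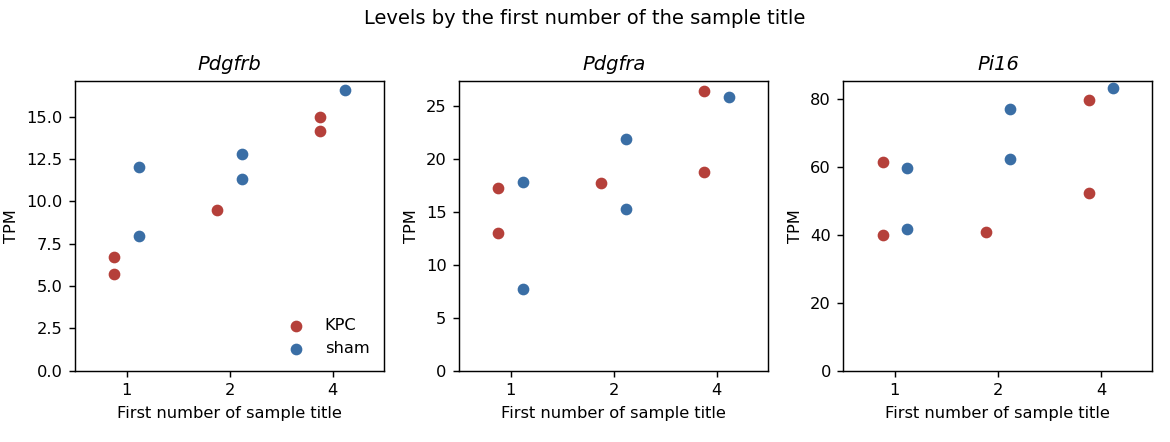
TPM of Pdgfrb, Pdgfra and Pi16 in each mouse against the first number of its sample title, KPC left of sham. Pdgfrb is at 14.1 to 16.6 TPM in the 3 mice numbered 4 and at or below 12.8 TPM in the other 7.

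Markers of other cell types were summed in each mouse. The summed TPM of 12 macrophage markers was 1555 to 6205 in KPC and 918 to 1489 in sham mice. It was highest in KPC mouse 1, and the other KPC mice had 1555 to 2291. Of these markers 12 of 12 had a positive difference, where 46.9% of all genes tested had one. None passed, and no marker was at 0 in all mice. Without KPC mouse 1, C1qa and C1qb, which encode complement C1q, were called, where 0.493% of all genes were called, 0.465% higher and 0.0282% lower. The list's median was then 0.70, where it was 0.94 with all mice. Skeletal muscle markers summed to 53.2 to 278 TPM in KPC and 57.4 to 5117 TPM in sham mice, highest in sham mouse 5, with 14 of 14 negative, a median of -2.88 and 0 called. With their mean as a covariate, 0 of the 10 genes were called and their median log2 difference was 0.23. Red cell markers summed to 8558 to 40759 TPM in KPC and 4751 to 12883 TPM in sham mice, highest in KPC mouse 1, with 8 of 8 positive, a median of 0.98 and 0 called. The part of macrophage and red cell RNA in the values of the 10 genes was not tested.

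Pericyte and smooth muscle markers, which bear on Pdgfrb, summed to 466 to 1283 TPM in KPC and 637 to 2689 TPM in sham mice, again highest in sham mouse 5. Of 13, 12 had a negative difference and 0 passed, with a median of -0.51. Rgs5, a pericyte gene, stood at 73.3 ± 19.7 TPM in KPC and 79.0 ± 11.6 TPM in sham mice, and Higd1b, a further pericyte gene and the only one of the 13 with a positive difference, at 10.8 ± 2.65 TPM in KPC and 7.30 ± 1.47 TPM in sham mice. Des, the muscle filament desmin, stood at 45.2 ± 27.6 TPM in KPC and 119.8 ± 118 TPM in sham mice, a log2 difference of -1.07 ± 0.53 with a limma adjusted p of 0.402. Mcam, an adhesion molecule of pericytes and endothelium, stood at 178 ± 56.8 TPM in KPC and 237 ± 48.6 TPM in sham mice, with a limma adjusted p of 0.388. Mesothelial markers summed to 137 to 281 TPM in KPC and 125 to 296 TPM in sham mice, with 0 of 10 called. Fat cell markers summed to 22081 to 28209 TPM in KPC and 22418 to 27551 TPM in sham mice, with 0 of 12 called, so both groups had the transcripts of fat. Cfd, at 13552 TPM in KPC and 11098 TPM in sham mice, weighs most in this sum. The list's median was -0.14, with 7 negative and 5 positive. Plin1 stood at 95.4 ± 26.3 TPM in KPC and 131.8 ± 12.9 TPM in sham mice (limma adjusted p 0.279). Acvr1c stood at 26.0 ± 7.69 TPM in KPC and 35.5 ± 3.63 TPM in sham mice (limma adjusted p 0.347). Schwann cell markers had 0 of 6 called and a median of -0.29. Of 9 markers of acinar and tumour epithelium 4 reached the filter and 0 were called. Prss2 and Epcam were at or below 0.124 TPM in every mouse, but others of that list were not near 0. Cela1 stood at 18.7 ± 8.54 TPM in KPC and 16.5 ± 4.42 TPM in sham mice, and Krt8 at 10.9 ± 4.71 TPM in KPC and 9.27 ± 3.50 TPM in sham mice.

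On GRCm38 with the GENCODE vM21 annotation, all 10 genes are protein-coding and were matched by Ensembl identifier. Dpp4 (ENSMUSG00000035000, chromosome 2, 62330073 to 62412231) and Fap (ENSMUSG00000000392, chromosome 2, 62500943 to 62574075) lie on the minus strand with Gcg between them. Dcn (ENSMUSG00000019929, chromosome 10, 97479609 to 97518143) and Lum (ENSMUSG00000036446, chromosome 10, 97565128 to 97572703) lie on the plus strand. So do Cd34 (ENSMUSG00000016494, chromosome 1, 194938819 to 194961279), Dpt (ENSMUSG00000026574, chromosome 1, 164796644 to 164824266), Pdgfra (ENSMUSG00000029231, chromosome 5, 75152292 to 75198215), Pi16 (ENSMUSG00000024011, chromosome 17, 29317680 to 29330593) and Pdgfrb (ENSMUSG00000024620, chromosome 18, 61045150 to 61085061). Clec11a (ENSMUSG00000004473, chromosome 7, 44302687 to 44306902) lies on the minus strand. By whole gene span, antisense genes overlap Pdgfra, Dpp4, Pi16, Cd34 and Dpt, and their exons were not compared. With no strand setting given in the sources used here, reads of any shared exon stretch cannot be told apart.

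The libraries summed to 20941200 to 24449900 normalized counts. KPC mouse 1 stood apart, with 15.7% of TPM from mitochondrially encoded genes where the other 9 had 26.3% to 33.3%, and a median correlation of 0.908 to the other libraries where these had 0.939 to 0.959. Of 13 mitochondrially encoded genes 0 were called, with a median of -0.20, or -0.02 without KPC mouse 1. Without KPC mouse 1, the 10 genes still had 0 calls and their median log2 difference was -0.03.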

How the data were processed

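RNA was measured in visceral fat of 10 mice, grouped by the labels into 5 KPC and 5 sham mice, with 1 library each. Per the labels' protocols, tissue was flash frozen, RNA was isolated with a Qiagen kit and libraries were made at Genewiz. The authors deposited normalized counts, handled here as a signal, and TPM. The tools named, per the submitters' processing notes, were DESeq2, DESeq and Salmon, with the build mm10, and their order, versions, annotation and strand: not given in the sources used here. All 20 sample columns matched 1 sample title each. Whole reads were not recovered: at the best step per library, 31.1% to 47.3% of values up to 30 lay within 0.05 of a whole number, so no count model was run and the depth in reads is unknown.

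On log2(normalized count + 1), limma 3.58.1 (R 4.3.3, variance trend on) tested the 14203 genes whose mean reached 10, and a gene was called where its Benjamini-Hochberg adjusted p over all of them was under 0.05. The fit was tested on simulated data. The labels name separate samples and do not mention litters or cages, so p-values measure the spread between these samples. Correlations used scipy 1.17.1. Named genes are the 10 genes, up to 3 with the smallest unadjusted p from each other list, and the 3 genes most like each of the 10 by r of values centred on the group means. Pecam1, Rgs5, Prss2, Epcam, Col6a2, Col1a1, Pparg and Lpl were added after their values were seen. Cfd and Cela1 are also named outside the rule of the smallest p, and C1qa was named for its call without KPC mouse 1. The 10 genes and all lists were chosen with earlier results of these data known. Alternatives were other pseudocounts, filters, scalings, variance models, blocks, a muscle covariate and each mouse left out.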

Additional observations from a re-analysis of the deposited data

Results flagged for a closer look

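Of 20 sets of 5 mice, 10 genes in 2 groups, 2 held a mouse far from the others by Dixon's test, which chance flags in about 1 of 20. Both were sham mouse 5. Clec11a stood at 9.64 TPM in that mouse, where the gap to the next sham mouse was 0.843 of the group's range. Lum stood at 262.7 TPM in it, with a gap of 0.727 of the range. The critical value for 5 samples is 0.71.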

How the results depend on the processing

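Under 23 alternatives, 0 of the 10 genes were called by limma each time, with adjusted p-values of at least 0.235. Their median log2 difference ran from -0.12 to 0.23. Dcn kept a positive and Dpp4, Pi16 and Pdgfrb a negative difference in all 23. Of 230 values, 22 changed sign. Cd34 was 0.002 with quantile normalization and 0.11 with the muscle covariate. With TPM rescaled without mitochondrially encoded genes, Clec11a was -0.004, Lum -0.076 and Dpt -0.005. Lum was -0.02 on TPM with a pseudocount of 1 and -0.087 with the title number as a block. Without both mice numbered 1 in the descriptions, an alternative chosen after seeing the data, Pdgfra was -0.052, Clec11a -0.055, Lum -0.18, Dpt -0.007 and Fap -0.003. Leaving out 1 mouse gave -0.053 to 0.33 for Pdgfra, -0.125 to 0.092 for Cd34, -0.022 to 0.26 for Clec11a and -0.13 to 0.25 for Lum.

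Over all genes, limma called 7 higher and 1 lower. Higher calls numbered 2 on TPM, 4 on TPM rescaled, 2 without the variance trend, 3 with the replicate block of the description numbers, 3 with the title number block, 0 with the muscle covariate and 43 without both mice numbered 1. Lower calls numbered 0 on TPM, 0 on TPM rescaled and 6 without both mice. Leaving out 1 mouse gave 1 to 66 higher and 1 to 4 lower calls. Of the member pairs, 3 correlated by Pearson, 5 did after centring on the group means and 0 without KPC mouse 1. The causes were not tested. KPC and sham mice with the same description number had correlations of deviations of 0.01 to 0.19, where other pairs had -0.24 to 0.16. Of 5 KPC mice, 2 correlated best with their own number. Whether these numbers pair the mice was not tested. The block changed no call among the 10 genes. The 5 mice per group limit what could be seen, and reads per gene are unknown.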

Other observations

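Ranked by Pearson r of log2 values centred on the group means, over 10 mice and the 12144 genes averaging 50 or more normalized counts, the genes most like each of the 10 were as follows, given as a description. The closest to Pdgfra was Timp2, an inhibitor of matrix metalloproteases (r = 0.98, rho = 0.92), before Snw1 and Frmd6. The closest to Pdgfrb was Rgmb, a co-receptor of bone morphogenetic proteins (r = 0.99, rho = 0.96), before Sparcl1 and Vegfc. For Dpp4 it was C2, complement component 2 (r = 0.96, rho = 0.96), before Scnn1a and Lvrn. Without centring C2 had r = 0.42, Scnn1a 0.72 and Lvrn 0.74. For Pi16 it was Glt8d2 (r = 0.97, rho = 0.94), before Tmem43 and Ece1.

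Cd34 was closest to Creb3l1 (r = 0.95, rho = 0.88), then Lyz1 and Mrgprf, and Clec11a to the Wnt receptor gene Fzd1 (r = 0.93, rho = 0.85), then Olfml3 and Rcn3. Dcn was closest to Avpr1a, a vasopressin receptor (r = 0.96, rho = 0.87), then C1s1 and Rabgef1, and Lum to Fndc5 (r = 0.97, rho = 0.85), then Scrn1 and Unc119b. Without centring, r was 0.78 for Lyz1 with Cd34, 0.72 for Fzd1 with Clec11a and 0.65 for Rabgef1 with Dcn. Dpt was closest to Mfap5, a microfibril protein (r = 0.99, rho = 0.95), then Ramp1 and Stx11, and Fap to Adamtsl1 (r = 0.96, rho = 0.94), then Mctp2 and Sfxn3. None of the 30 genes is itself one of the 10, and the genes of 1 mouse share its library.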
